A study of Homo sapiens with 5 samples.

Results

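The pyruvate dehydrogenase complex and the citric acid cycle were followed through every array probe whose platform gene symbol is one of 35 named genes of this pathway. Probes were present for 30 of the 35 genes, out of 19090 genes on the array as a whole, and these 30 genes had 48 probes. SDHB, FH, PDP2, GLS2 and GLUD1 are not analysed here.

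The samples were MHCC97H cells, an established human hepatocellular carcinoma line with high metastatic potential, grown in DMEM with serum. Per the labels, 2 samples stably carried an empty vector, 2 carried ACOT12 and 1 carried a mutant of ACOT12, and all had been selected with puromycin for 1 week. ACOT12 is a cytosolic thioesterase that splits acetyl-CoA into acetate and coenzyme A, and the series was made to look for genes downstream of it. The labels name neither the residue changed in the mutant nor the promoter that drives the transgenes, and they do not say whether the cells were clones or pools, and no label states that replicates were independent cultures. A p-value here therefore reflects only how much these arrays differ, which may be technical.

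Pyruvate made in glycolysis enters the mitochondrion through the mitochondrial pyruvate carrier and is oxidised there by the pyruvate dehydrogenase complex to acetyl-CoA. Kinases switch the complex off by phosphorylation and phosphatases switch it back on. The citric acid cycle condenses acetyl-CoA with oxaloacetate to citrate, oxidises it stepwise to carbon dioxide and passes the electrons to the respiratory chain, and in hepatocytes citrate exported to the cytosol is a source of the acetyl-CoA pool on which ACOT12 acts.

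Each value below is the intensity of a probe in arbitrary linear units as the authors deposited it, and log2 differences are on the log2(intensity + 1) scale. The ACOT12 probe, which checks the labels, read 59.2 and 18.0 with empty vector, 4733 and 4859 with ACOT12 and 4029.6 with the mutant. Of 10 markers of hepatocytes and hepatocellular carcinoma, 9 had a probe and all 9 lay above the filter on dim probes, a mean log2 value of 7.34 over the 5 arrays. KRT18, a keratin of liver epithelium, read at least 119691 in every array and AFP, the fetal plasma protein of many liver tumours, at least 3379.8. Of the markers of other cell types, 3 of 5 immune, 3 of 5 fibroblast, 3 of 3 erythroid and 4 of 4 endothelial genes with a probe lay above the filter, while PTPRC and CD3E of leukocytes and COL3A1 and DCN of fibroblasts lay below it. COL1A1 of fibroblasts (2.13), VWF of endothelium (1.54) and ALAS2 of erythroid cells (1.00) were higher in ACOT12 than in the mutant on the log2 scale (limma, adjusted p = 0.0349, 0.0389 and 0.0462). In this comparison 9.23% of all 15053 genes were called, 1386 higher and 3 lower with ACOT12, and quantile normalization left 5 of all genes called. COL1A1 read 3738 and 2288 with empty vector, 3882 and 3905 with ACOT12 and 891 with the mutant. The immune list had summed intensities of 12086 to 14501, the fibroblast list 6366 to 8864 in 4 arrays and 5088 with the mutant, and the erythroid list 2134 to 3689.9 in 4 arrays and 1705 with the mutant. The endothelial list had summed intensities of 3180.4 and 3874 with empty vector, 3721 and 4291 with ACOT12 and 2206 with the mutant. ALB, the main plasma protein of hepatocytes, read 2771 and 2843 with empty vector, 1755 and 1209 with ACOT12 and 853 with the mutant. Of the 9 hepatocyte markers, 3 read higher and 6 lower with ACOT12 than with empty vector, and 5 higher and 4 lower with the mutant. Fewer cells of a type and less RNA per cell cannot be told apart in such bulk samples, and the part of these markers in the results was not tested. Median intensity over all probes was 616 in the mutant array and 699.9 to 825 in the other 4. The signal of dim probes differed more: over the dimmest 10% of probes, log2 values exceeded the empty vector mean by 1.62 and 1.86 with ACOT12 and by 1.05 with the mutant, against differences of −0.06 to −0.02 over the brightest 10%. Over these dimmest probes the empty vector arrays themselves stood at 0.47 and −0.47 from their mean. Negative intensities, which were raised to 0, numbered 310 and 911 with empty vector, 1 and 0 with ACOT12 and 0 with the mutant. The part of this brightness shift, and of the raised values, in the differences of dim members was not tested.

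No member of the pathway passed the test in any of the 3 comparisons. The ACOT12 transgene itself was not called against empty vector either, at 7.15 ± 0.50 log2 with ACOT12 (limma, adjusted p = 0.122). With the mutant it stood 6.90 ± 0.62 above empty vector and was also not called. A gene left uncalled here is therefore no evidence that it did not change. For ACOT12 against empty vector, 0 of 28 members tested were called by limma at an adjusted p under 0.05, where 0.00% of all 15053 genes were called, and 0 members had an unadjusted p under 0.05, where 3.0% of all genes did. For the mutant against empty vector, 0 of 28 members were called and 0 had an unadjusted p under 0.05, against backgrounds of 0.0332% and 20.7% of all genes. For ACOT12 against the mutant, 0 of 28 were called and 1 had an unadjusted p under 0.05, against backgrounds of 9.23% and 22.6%. Adjusted p-values of the members lay between 0.994 and 0.999 for ACOT12 against empty vector, between 0.301 and 0.979 for the mutant against empty vector and between 0.147 and 0.997 for ACOT12 against the mutant.

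**Figure D1:**
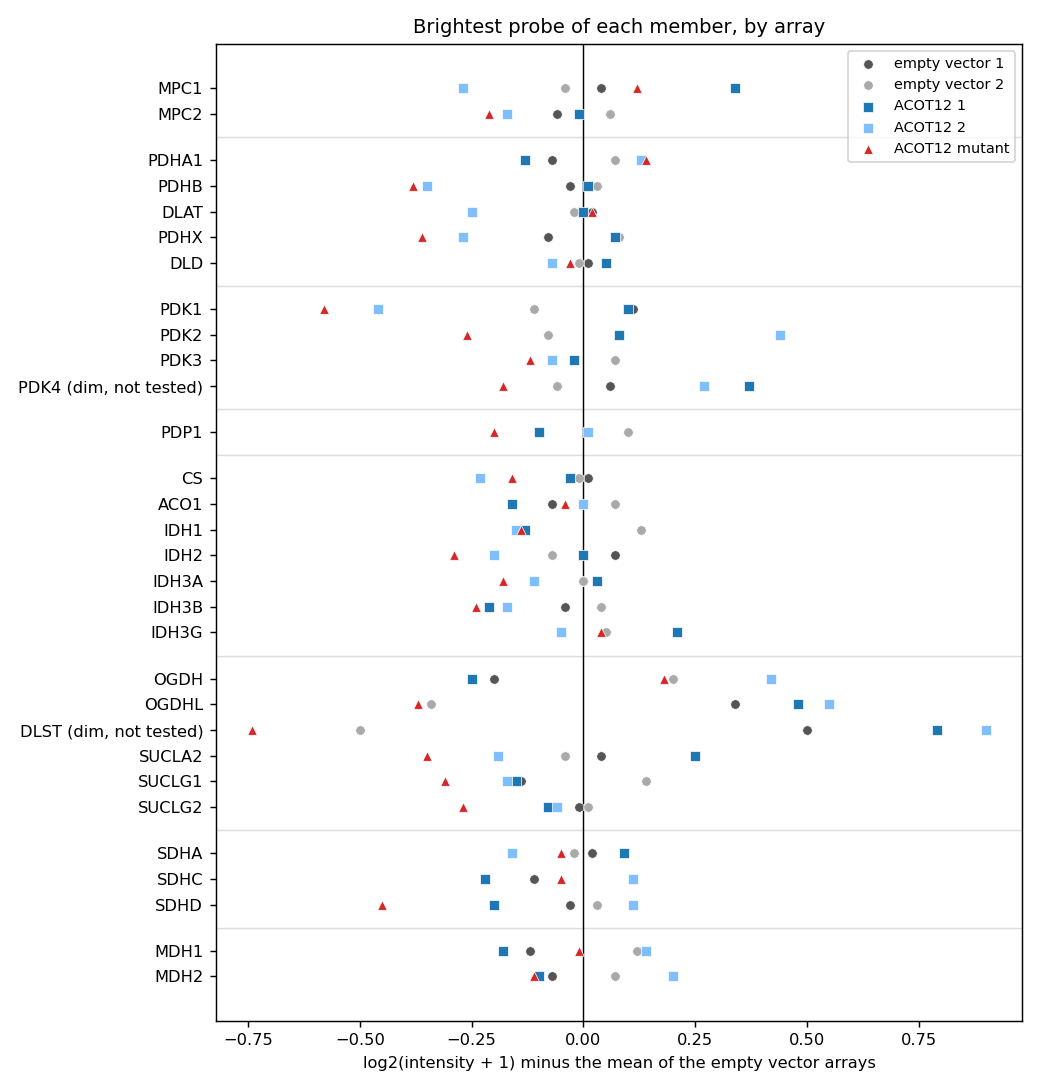
Log2(intensity + 1) of the brightest probe of each of the 30 members, as the difference from the mean of the empty vector arrays (horizontal axis, log2 units), with 1 point per array and the members grouped by their role from pyruvate entry (top) to malate dehydrogenases (bottom). Circles are empty vector arrays, squares ACOT12 arrays and triangles the mutant array. For most genes the squares lie on both sides of 0, and the triangle lies to the left of both circles for 20 of the 28 tested genes.

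The intervals of the differences show which sizes these arrays leave possible, not the smallest size that the test could call. Standard errors of the log2 differences lay between 0.15 and 0.27 for ACOT12 against empty vector. In that comparison the 95% interval stayed inside ±0.75 log2 units for 27 of 28 members, with OGDHL as the exception, and inside ±0.5 for 14 of 28. With 1 mutant array the limits were wider: the intervals stayed inside ±0.75 for 17 of 28 members against empty vector and for 19 of 28 against ACOT12. These intervals hold gene by gene and are not adjusted for the number of genes. The median size of a member's difference was 0.08 log2 for ACOT12 against empty vector, 0.18 for the mutant against empty vector and 0.14 for ACOT12 against the mutant, where all genes had 0.12, 0.26 and 0.25.

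**Figure D2:**
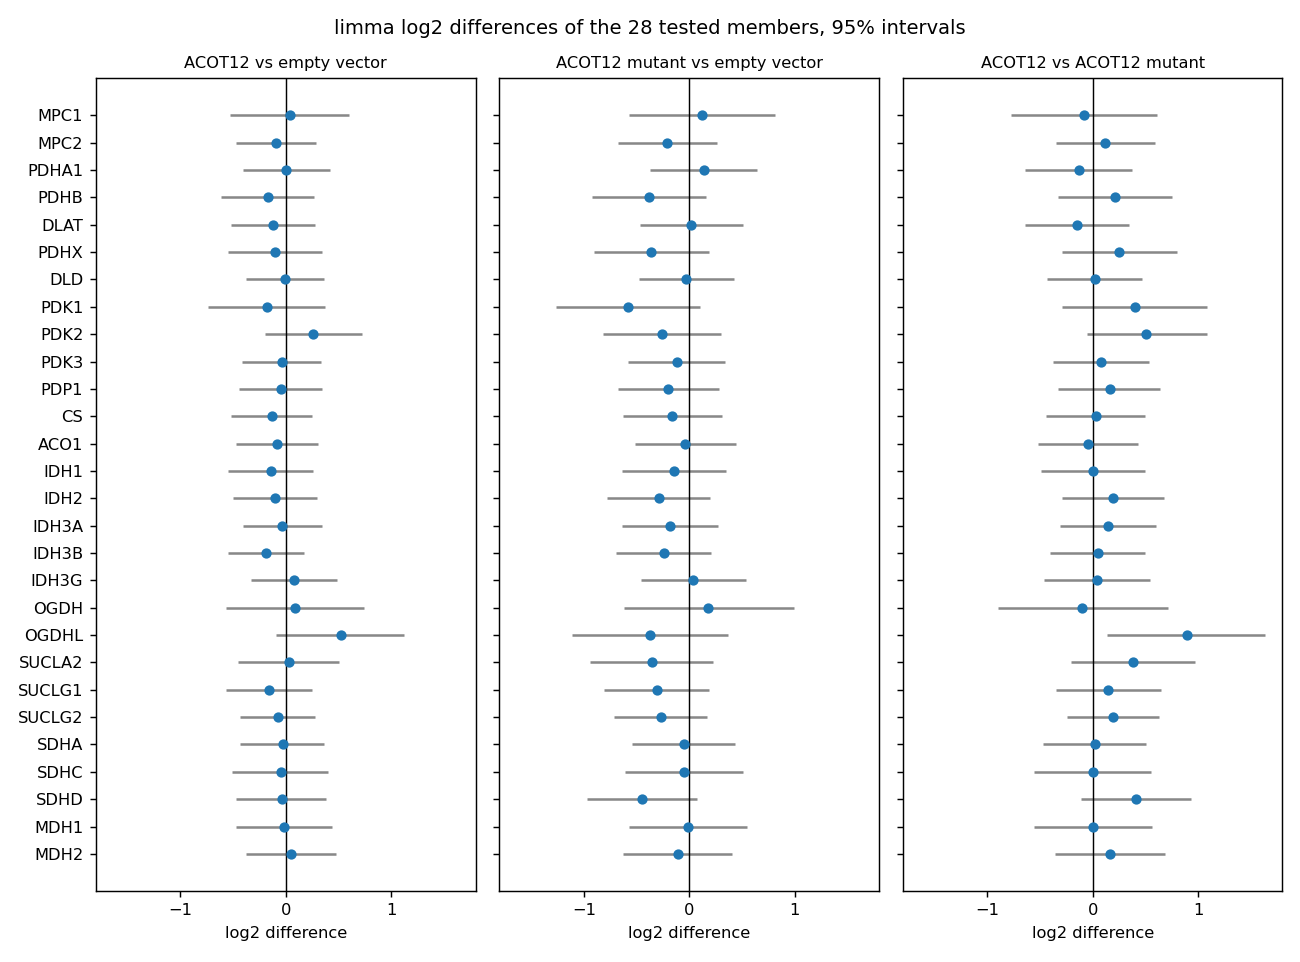
Log2 difference (horizontal axis) with its 95% interval (line, limma) for the 28 tested members in the 3 comparisons. The intervals cross 0 for every member in the left and middle panels and for all but OGDHL in the right panel, where OGDHL stands at 0.89 with an interval from 0.14 to 1.63.

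More members read lower than higher against empty vector, both with ACOT12 and with the mutant. With ACOT12, 8 members read higher and 20 lower than with empty vector, where 61.4% of all genes read higher and 38.6% lower, and the median was −0.05 against 0.05 for all genes. With the mutant, 5 members read higher and 23 lower, where 63.2% of all genes read lower and 36.8% higher, and the median was −0.17 against −0.13 for all genes. ACOT12 read above the mutant for 21 members and below it for 7 (median 0.10, all genes 0.13), where 65.7% of all genes read above and 34.3% below. The groups did not overlap for 1 member higher and 4 lower with ACOT12, against backgrounds of 20.2% and 11.5% of all genes. The mutant array lay below both empty vector arrays for 20 of 28 members (background 54.7%) and above both for 3 of 28 (background 29.6%). Both ACOT12 arrays lay above the mutant array for 16 of 28 (background 51.1%) and below it for 2 of 28 (background 22.5%). The sign of the mutant's median depended on the scaling: it was −0.11 after quantile normalization, −0.13 after cyclic loess and 0.11 after centring each array on its median, while all genes moved to 0.00, −0.03 and 0.16. Median centring also turned the members' median for ACOT12 against the mutant to −0.31, beside −0.28 for all genes. These comparisons share arrays, so their values are given side by side and not set against each other.

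Members were mostly bright, and their differences are best read beside genes of like brightness. Of the 28 tested members, 17 fell among the brightest 25% of all genes, 8 in the next 25%, 1 (PDK1) in the 25% below and 2 in the dimmest 25%. Among the brightest 25% the mutant's median against empty vector was −0.14 for the 17 members and −0.03 for all 3763 genes, and the medians with ACOT12 were −0.04 and −0.03. Among the dimmest 25% the median of all genes was 0.26 with ACOT12 and −0.31 with the mutant, both against empty vector, beside medians of 0.39 and −0.31 for the 2 members there, PDK2 and OGDHL. These genes lie above the filter, unlike the dimmest 10% of probes described above.

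**Figure D3:**
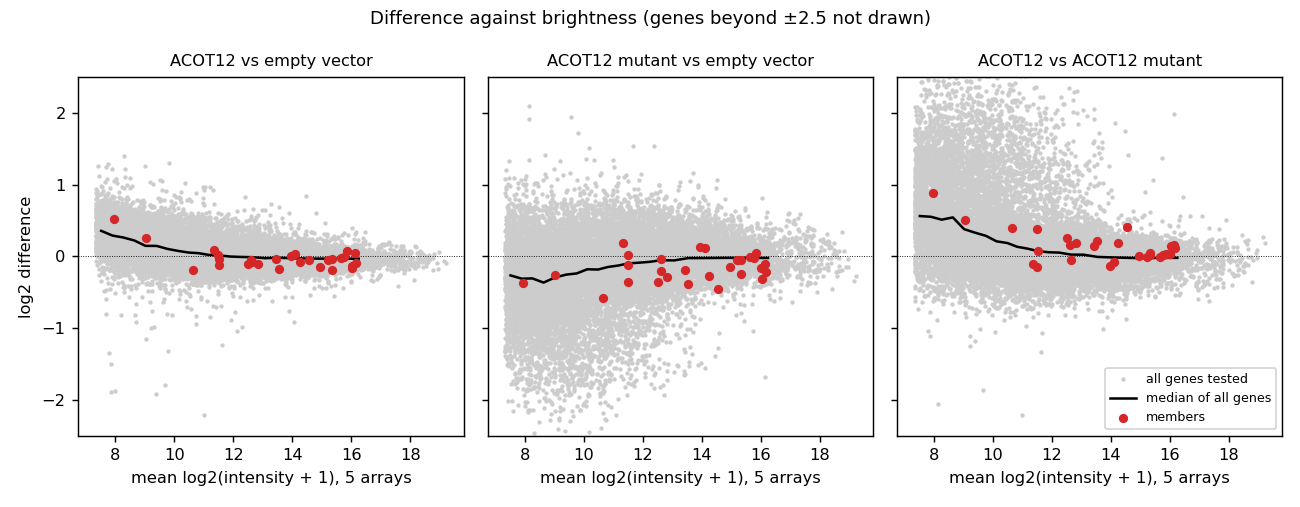
Log2 difference (vertical axis) against mean log2(intensity + 1) over the 5 arrays (horizontal axis) for all tested genes (grey), their running median (black line) and the members (red) in the 3 comparisons. Dim genes read higher with ACOT12 and lower with the mutant than with empty vector, the black line nears 0 for bright genes, and most members sit in its flat part.

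Pyruvate enters the mitochondrion through a carrier made of MPC1 and MPC2. MPC1 read 17634 and 16607 with empty vector, 21636 and 14216 with ACOT12 and 18546 with the mutant. The ACOT12 replicates enclosed all other arrays, so no shift beyond their spread was seen. MPC2 read 74738 and 81126 with empty vector, 77154 and 69286 with ACOT12 and 67154 with the mutant, which was the lowest array. Its dimmer probe gave the same picture, at −0.09 for ACOT12 and −0.20 for the mutant, both against empty vector, beside −0.09 and −0.21 for the brighter one. For MPC1 both probes read higher with the mutant than with empty vector, by 0.12 and 0.36.

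The pyruvate dehydrogenase complex joins a decarboxylase (PDHA1 and PDHB), an acetyltransferase core (DLAT), the protein X that anchors dihydrolipoamide dehydrogenase to the core (PDHX) and that dehydrogenase itself (DLD). PDHB read 12898 and 13506 with empty vector, 13286 and 10390.3 with ACOT12 and 10135 with the mutant. ACOT12 replicate 2 and the mutant array were thus low, and ACOT12 replicate 1 lay between the empty vector arrays. Relative to empty vector, ACOT12 gave a log2 difference of −0.17 ± 0.18 (SE; limma, adjusted p = 0.999), which turned to 0.01 without ACOT12 replicate 2, and the mutant gave −0.38 ± 0.22 (adjusted p = 0.387; −0.10 after median centring). PDHX followed the same order of arrays, with 5976 and 6654 for empty vector, 6605 and 5215 for ACOT12 and 4919 for the mutant. Its mutant difference was −0.36 ± 0.22 against empty vector (limma, adjusted p = 0.421; −0.07 after median centring), and ACOT12 read 0.25 ± 0.22 above the mutant (adjusted p = 0.602), a direction that turned to −0.16 after median centring.

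On their brightest probes, other subunits of the complex lay close to empty vector with the mutant. DLAT read 3042 and 2951 with empty vector, 2999 and 2524 with ACOT12 and 3044 with the mutant. DLD, which the complex shares with other 2-oxo acid dehydrogenases, read 56249 and 55656, then 58024 and 53414, and 54867. PDHA1 read 14896 and 16311, then 14282 and 17081, and 17134, so that its brightest probe was highest in the mutant array. The mutant differences of the 5 brightest probes ran from 0.14 (PDHA1) to −0.38 (PDHB), and none passed the test. The dimmer probes of these genes all read lower with the mutant than with empty vector, at differences of −0.18 and −0.44 for PDHA1, −0.44 for DLAT and −0.31 for DLD. The dimmest PDHA1 probe read 1688 and 1954 with empty vector, 1677 and 1517 with ACOT12 and 1341 with the mutant, and the dimmer DLAT probe 1599 and 1430.3, then 1407 and 1662, and 1112, the mutant being lowest on both.

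The pyruvate dehydrogenase kinases inactivate the complex, and 3 of the 4 were tested. PDK1, a kinase known as a target of the hypoxia-inducible factor, read 1969.6 and 1685 with empty vector, 1947 and 1321 with ACOT12 and 1217 with the mutant. The mutant array was lowest, with ACOT12 replicate 2 close to it and replicate 1 within the empty vector range. Relative to empty vector, the log2 difference of PDK1 with ACOT12 was −0.18 ± 0.23 (limma, adjusted p = 0.999), which became 0.10 without ACOT12 replicate 2. With the mutant it was −0.58 ± 0.28 (limma, adjusted p = 0.307). ACOT12 stood 0.40 ± 0.28 above the mutant (limma, adjusted p = 0.502), or −0.01 after median centring.

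PDK2, a widely expressed kinase of the family, read 537 and 478 with empty vector, 534 and 687 with ACOT12 and 424 with the mutant. The mutant array was lowest and ACOT12 replicate 2 highest. Relative to empty vector, PDK2 stood 0.26 ± 0.19 higher with ACOT12 (limma, adjusted p = 0.994). With the mutant its difference was −0.26 ± 0.23 (limma, adjusted p = 0.579), turning to 0.08 after quantile normalization, 0.01 after cyclic loess and 0.03 after median centring. ACOT12 read 0.51 ± 0.23 above the mutant (limma, adjusted p = 0.267), but 0.02 after quantile normalization, 0.11 after cyclic loess and 0.10 after median centring. The dimmer PDK2 probe gave 0.04, 0.11 and −0.07 in the same comparisons, and so 2 of these 3 differences had the opposite sign.

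PDK3 read 2843 and 3142 with empty vector, 2951 and 2855 with ACOT12 and 2755 with the mutant, with differences from empty vector of −0.04 ± 0.15 (limma, adjusted p = 0.999) and −0.12 ± 0.19 (adjusted p = 0.763). ACOT12 read 0.08 ± 0.19 above the mutant for PDK3 (limma, adjusted p = 0.875). PDK4, the kinase induced in fasting liver and muscle, had a dim probe with a mean log2 value of 7.33, just under the filter of 7.34, and was not tested. It read 157 and 144 with empty vector, 194 and 181 with ACOT12 and 132 with the mutant, so both ACOT12 arrays lay above both empty vector arrays. With no filter its difference for ACOT12 was 0.32 ± 0.15 (limma, adjusted p = 0.551), beside a median of 0.26 for the dimmest 25% of tested genes. Those genes all lie above the filter and PDK4 below it, so that median is not from genes of like brightness.

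PDP1, a phosphatase that reactivates the complex, read 6104 and 6996 with empty vector, 6086 and 6571 with ACOT12 and 5679.6 with the mutant. Its difference from empty vector was −0.05 ± 0.16 with ACOT12 (limma, adjusted p = 0.999) and −0.20 ± 0.20 with the mutant (adjusted p = 0.610). ACOT12 read 0.16 ± 0.20 above the mutant (limma, adjusted p = 0.727). The dimmer PDP1 probe read 1750.1 and 1886, then 1625 and 1726, and 1085 with the mutant, a difference of −0.74 ± 0.19 from empty vector in the fit on single probes (limma, adjusted p = 0.112). The mutant array was lowest on both PDP1 probes.

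The first part of the cycle runs from citrate synthase (CS) through aconitase and the isocitrate dehydrogenases to 2-oxoglutarate. Of its 7 tested members, 6 read lower and 1 higher with ACOT12 than with empty vector (median −0.10), and 6 lower and 1 higher with the mutant (median −0.16). The brightest CS probe read 70639 and 69189.7 with empty vector, 68407 and 59507 with ACOT12 and 62539.7 with the mutant. All 3 transgene arrays lay below the empty vector arrays there, but the dimmer CS probe did the opposite for the mutant. It read 5519 and 5535 with empty vector, 5055 and 6809 with ACOT12 and 8456 with the mutant, which was the highest array, at 0.61 ± 0.24 above empty vector in the fit on single probes (limma, adjusted p = 0.220).

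IDH3B, a regulatory subunit of the NAD-dependent isocitrate dehydrogenase, read 43529 and 46167 with empty vector, 38799 and 39809.6 with ACOT12 and 37959 with the mutant. The ACOT12 arrays did not overlap with empty vector, at 39304 ± 715 against 44848 ± 1866 (SD, n = 2 each), yet the log2 difference of −0.19 ± 0.15 missed the threshold (limma, adjusted p = 0.997). The dimmer IDH3B probe read 0.11 higher with ACOT12 and 0.18 higher with the mutant. The catalytic subunit IDH3A read 11436 and 11387, then 11687 and 10587, and 10055 with the mutant, while the other regulatory subunit IDH3G read 55412 and 59078, then 66223 and 55287, and 58991. With ACOT12, the brightest probe thus read lower for IDH3B and IDH3A (−0.04) and higher for IDH3G (0.08), and only for IDH3B did the groups not overlap.

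The NADP-dependent enzymes are the cytosolic IDH1 and the mitochondrial IDH2. IDH1 read 30609 and 36744 with empty vector, 30712 and 30123 with ACOT12 and 30336 with the mutant. On this probe empty vector replicate 2 stood apart from the other 4 arrays, and the ACOT12 difference was −0.14 ± 0.16 (limma, adjusted p = 0.999), or −0.01 without that array. The other IDH1 probe read 22454 and 27845 with empty vector, 22578 and 28431 with ACOT12 and 26580.1 with the mutant, with all groups overlapping (0.02 for ACOT12). IDH2 read 8144 and 7408, then 7769 and 6772, and 6354, the lowest, with the mutant (−0.29 against empty vector). ACO1, the cytosolic aconitase that also acts as an iron-regulatory protein, read 6203 and 6820.2, then 5825 and 6502, and 6343, with the groups overlapping throughout.

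The 2-oxoglutarate dehydrogenase step gave the member with the smallest p in 2 of the 3 comparisons. OGDHL, a tissue-restricted paralogue of the decarboxylase OGDH, read 285 and 177 with empty vector, 314 and 329.6 with ACOT12 and 173 with the mutant. Both ACOT12 arrays were above both empty vector arrays, and the mutant array was next to empty vector replicate 2. The log2 difference of ACOT12 from empty vector was 0.52 ± 0.25 (limma, adjusted p = 0.994). It was 0.86 without empty vector replicate 1 and 0.17 without empty vector replicate 2, and 0.23 after quantile normalization. ACOT12 read 0.89 ± 0.30 above the mutant (limma, adjusted p = 0.147), or 0.28 after quantile normalization and 0.34 after cyclic loess. This difference passed when the replicate number entered as a block (1.04, limma, adjusted p = 0.0444), where 2485 of all 15053 genes were called. It also passed when either empty vector array was left out. Either omission left the difference at 0.89 and took the gap of 0.69 between the empty vector replicates out of the spread. The share of all genes called in each of those fits is not given here, and why OGDHL passed there was not tested. It passed in none of the other 10 alternatives run for it. The OGDHL probe was dim (mean log2 value 7.95), and the median over the dimmest 25% of tested genes was 0.51 for ACOT12 against the mutant.

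OGDH itself read 2154 and 2829 with empty vector, 2077 and 3307 with ACOT12 and 2806 with the mutant on its brightest probe. Replicates of either group were farther apart than the groups. Its dim probe read 289 and 219.6, then 253 and 272, and 158 with the mutant, 0.67 below empty vector. DLST, the succinyltransferase of the same complex, was below the filter, at 59.2 and 29.3 with empty vector, 73.0 and 78.9 with ACOT12 and 24.7 with the mutant, and no size is given for a probe so near the floor.

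The succinyl-CoA synthetases turn succinyl-CoA into succinate, with SUCLG1 as the shared subunit and SUCLA2 and SUCLG2 as the nucleotide-specific ones. SUCLG1 read 66707 and 80899.8 with empty vector, 65983 and 65202 with ACOT12 and 59229.7 with the mutant. SUCLG2 read 20453 and 20844, then 19471 and 19755, and 17140.2. On these brightest probes of both genes the ACOT12 arrays lay below empty vector and the mutant array below those. The differences from empty vector were −0.16 ± 0.17 for SUCLG1 with ACOT12 (limma, adjusted p = 0.999), −0.31 ± 0.20 for SUCLG1 with the mutant (adjusted p = 0.447) and −0.27 ± 0.18 for SUCLG2 with the mutant (adjusted p = 0.454). The last became −0.02 with all probes averaged and 0.01 after median centring, which also took the mutant value of SUCLG1 to −0.03. Without empty vector replicate 2 the SUCLG1 differences were −0.02 with ACOT12 and −0.17 with the mutant, and without replicate 1 they were −0.30 and −0.45. The dimmer SUCLG1 probe read 14033 and 17055, then 14304 and 12086, and 11892 with the mutant, so ACOT12 overlapped with empty vector there. The dimmer SUCLG2 probe, below the filter, read 165 and 132, then 161 and 171, and 173 with the mutant, which was its highest array. SUCLA2 read 3081 and 2910.1, then 3552 and 2617, and 2341 with the mutant. All 3 genes were therefore lowest in the mutant array on their brightest probes. The mutant array lay below both empty vector arrays for 54.7% of all genes. For SUCLA2 the ACOT12 arrays read 0.38 ± 0.24 above the mutant (limma, adjusted p = 0.448), or −0.03 after median centring.

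Succinate dehydrogenase belongs to both the cycle and the respiratory chain. Its membrane anchor SDHD had the smallest p of all members for the mutant. SDHD read 25569.8 and 26512 with empty vector, 22627 and 28193 with ACOT12 and 19069 with the mutant, which was lowest, and the ACOT12 arrays enclosed the empty vector arrays. The mutant difference was −0.45 ± 0.21 from empty vector (limma, adjusted p = 0.301; −0.17 after median centring), and ACOT12 read 0.41 ± 0.21 above the mutant (adjusted p = 0.351; −0.01 after median centring). The flavoprotein SDHA did not share this, at 42204 and 41311, then 44401 and 37496, and 40250.4 with the mutant. The mutant reading of SDHA was 0.05 below empty vector on the log2 scale, less than its standard error of 0.20.

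The other anchor, SDHC, gave the largest disagreement between probes of a gene. Its brightest probe read 35832 and 41863 with empty vector, 33309 and 41896 with ACOT12 and 37482 with the mutant, with all groups overlapping. Its dimmer probe read 4276 and 3041, then 3279.7 and 3345, and 1569.7 with the mutant, far below the other 4 arrays. In the fit on single probes this probe read −1.20 ± 0.25 with the mutant against empty vector (limma, adjusted p = 0.0858), and ACOT12 read 1.08 ± 0.25 above the mutant (adjusted p = 0.0499). It was the 1 of 45 member probes called in that comparison, where 9.68% of all 21198 probes were called, while 0 member probes were called for the mutant against empty vector (background 0.0283%). The call was lost after quantile normalization (0.88, adjusted p = 0.0854), median centring (0.66, adjusted p = 0.0645), cyclic loess (0.98, adjusted p = 0.0559) and when ACOT12 replicate 1 (1.09, adjusted p = 0.257) or replicate 2 (1.06, adjusted p = 0.234) was left out. The dimmer probes of SDHC, PDP1 and CS were singled out after their values were seen, and which transcripts each probe detects is not given in the sources used here.

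**Figure D4:**
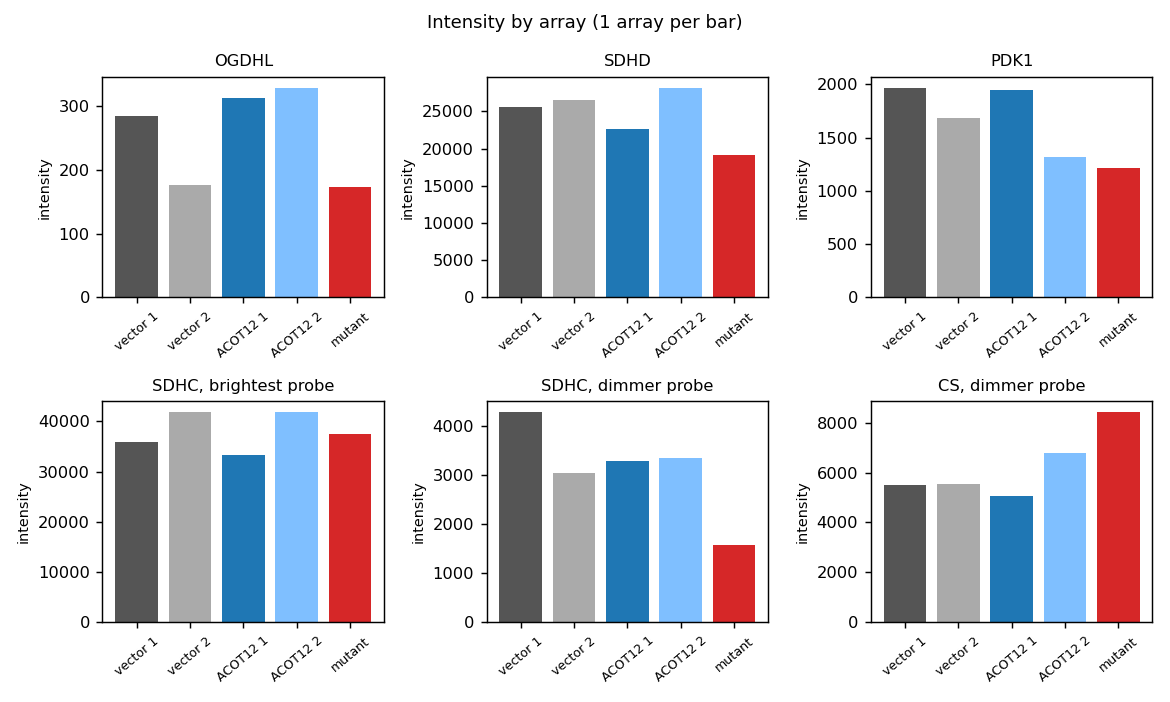
Intensity (vertical axis, linear units from 0) in each of the 5 arrays, 1 bar per array, for OGDHL, SDHD, PDK1, both SDHC probes and the dimmer CS probe. The mutant bar is lowest for OGDHL, SDHD, PDK1 and the dimmer SDHC probe (1569.7), lies within the range of the others for the brightest SDHC probe, and is highest for the dimmer CS probe (8456).

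The cycle closes through the malate dehydrogenases. Cytosolic MDH1 read 47504 and 56112 with empty vector, 45702 and 57060.0 with ACOT12 and 51145 with the mutant. Mitochondrial MDH2 read 69190.5 and 75749.7, then 67628 and 83183, and 66976. On these brightest probes the ACOT12 replicates enclosed both empty vector arrays, and the mutant was −0.01 from empty vector for MDH1 and −0.11 for MDH2. On the other MDH1 probe, ACOT12 (41514 and 38645) lay above empty vector (37084 and 38543), by 0.08, and the mutant read 41276.

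Probes of the same gene often pointed opposite ways, which bears on every small difference above. Of the 17 members with more than 1 probe, all probes had the same sign for 9 with ACOT12 against empty vector, for 7 with the mutant against empty vector and for 5 with ACOT12 against the mutant. Signs were read from rounded differences. MDH1 (−0.00 and −0.04 for ACOT12 against the mutant) was therefore not among these 5, although both its probes read lower with ACOT12. With the mutant, MPC2 (−0.21 and −0.20), SUCLG1 (−0.31 and −0.38), PDP1, SDHC and DLD were below empty vector on all their probes, and MPC1 and IDH3G above on all. The 13 members with a single probe, among them SDHD, PDK1, PDHB and OGDHL, had no such check.

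**Figure D5:**
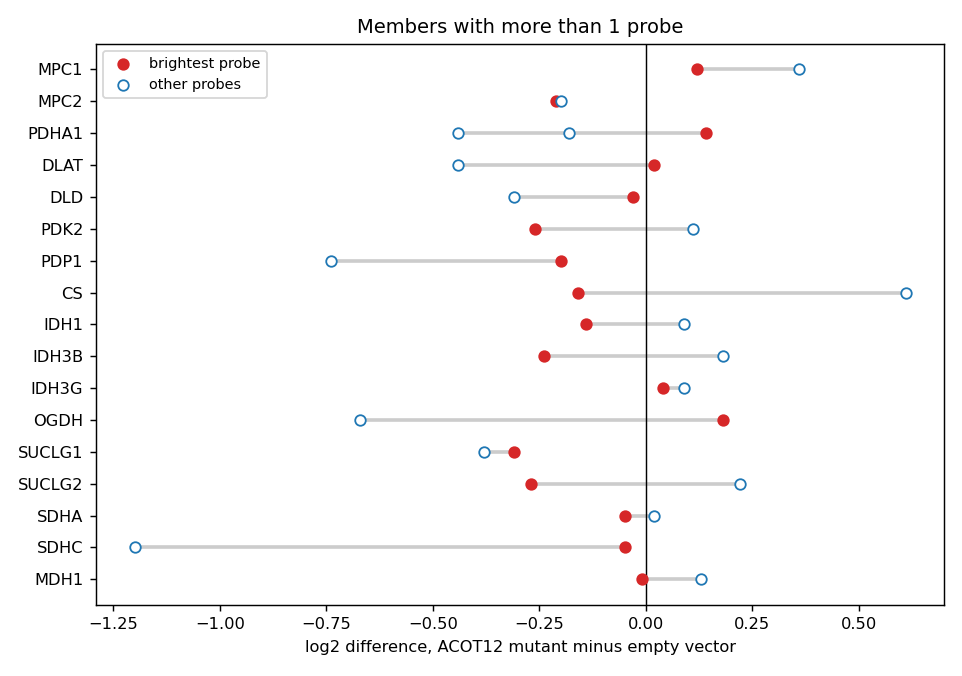
Log2 difference of the mutant array from the empty vector mean (horizontal axis) for every probe of the 17 members with more than 1 probe, with the brightest probe as a filled point, the others as open circles and a grey line joining probes of a gene. The line crosses 0 for 10 of the 17 genes, and the widest is that of SDHC, from −1.20 to −0.05.

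Replicates of ACOT12 were less alike than those of empty vector for these genes. The median gap between the empty vector replicates was 0.13 log2 units over the 28 members (largest 0.69, for OGDHL) and 0.15 over all genes. Between the ACOT12 replicates it was 0.25 (largest 0.67, for OGDH) and 0.20 over all genes. A gap over 0.25 separated the replicates for 4 members with empty vector and for 13 with ACOT12. Most differences between ACOT12 and empty vector named above are smaller than this.

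Genes that serve the same enzymes, from lists of related functions, gave no call either. Of all genes, 0.00% were called for ACOT12 against empty vector, 0.0332% for the mutant against empty vector and 9.23% for ACOT12 against the mutant. These shares also stand beside the lists that follow. Of 16 tested genes for lipoylation, iron-sulfur cluster supply, assembly and regulation, 0 passed in any comparison, and the medians were 0.00 with ACOT12 and −0.04 with the mutant against empty vector. LIAS, which makes the lipoyl cofactor of the 2-oxo acid dehydrogenases, read 2922 and 2554 with empty vector, 2892 and 2332 with ACOT12 and 2113 with the mutant (−0.37 ± 0.22 against empty vector, limma, adjusted p = 0.401). The iron-sulfur factor IBA57 read −0.30 ± 0.19 with the mutant (limma, adjusted p = 0.438) and DHTKD1, a homologue of OGDH, −0.25 ± 0.20 (adjusted p = 0.518). With ACOT12 the smallest p belonged to SDHAF3 (−0.19 ± 0.15), an assembly factor of succinate dehydrogenase, and to BOLA3 and GLRX5 (−0.11 ± 0.15 each), both iron-sulfur factors, all at a limma adjusted p of 0.999. ACOT12 read above the mutant for IBA57 (0.31 ± 0.19, limma, adjusted p = 0.442) and DHTKD1 (0.29 ± 0.20, adjusted p = 0.495), and below it for SDHAF3 (−0.28 ± 0.19, adjusted p = 0.479).

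Among 17 tested genes of entry, exit and exchange, 0 passed in any comparison, with medians of −0.02 for ACOT12 and −0.10 for the mutant against empty vector. SLC25A22, a mitochondrial glutamate carrier, read 2384 and 2454 with empty vector, 2607 and 3202 with ACOT12 and 4433 with the mutant. All transgene arrays were above empty vector, by 0.26 ± 0.17 with ACOT12 (limma, adjusted p = 0.994) and 0.87 ± 0.21 with the mutant (adjusted p = 0.104). SLC25A12, an aspartate-glutamate carrier of the malate-aspartate shuttle, read −0.43 ± 0.19 with the mutant (limma, adjusted p = 0.283) and ALDH5A1, which feeds succinate from GABA into the cycle, −0.41 ± 0.21 (adjusted p = 0.331). NNT, the nicotinamide nucleotide transhydrogenase, read −0.20 ± 0.17 with ACOT12 (limma, adjusted p = 0.999), and SLC25A1, the citrate carrier, 0.18 ± 0.21 (adjusted p = 0.999). ACOT12 read above the mutant for SLC25A12 (0.50 ± 0.19, limma, adjusted p = 0.199) and the malic enzyme ME2 (0.48 ± 0.18, adjusted p = 0.195), and below it for SLC25A22 (−0.62 ± 0.21, adjusted p = 0.141).

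Of 11 tested transcription regulators of oxidative metabolism, 0 passed, with medians of −0.08 for ACOT12 and −0.11 for the mutant against empty vector. TFAM, which packages and transcribes mitochondrial DNA, read 8413 and 7254 with empty vector, 10343 and 8289 with ACOT12 and 15445 with the mutant, which was highest (0.98 ± 0.22, limma, adjusted p = 0.0998). PPARD, a nuclear receptor that regulates fatty acid use, read 666 and 485, then 633 and 717, and 352 with the mutant (−0.69 ± 0.25, adjusted p = 0.197). GABPA, an activator of nuclear genes for mitochondrial proteins, read −0.45 ± 0.27 with the mutant (limma, adjusted p = 0.406). With ACOT12 the smallest p belonged to TFAM (0.25 ± 0.18), the hypoxia-inducible factor EPAS1 (−0.21 ± 0.17) and PPARD (0.24 ± 0.20), with limma adjusted p from 0.994 to 0.999. Against the mutant, ACOT12 read 0.93 ± 0.25 for PPARD (limma, adjusted p = 0.0745), −0.74 ± 0.22 for TFAM (adjusted p = 0.108) and −0.35 ± 0.21 for EPAS1 (adjusted p = 0.429). PPARGC1A, the coactivator of mitochondrial biogenesis, lay below the filter.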

How the data were processed

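RNA was measured on 5 single-colour arrays, labelled with Cy5 after amino allyl amplification, per the labels' protocols. What the authors deposited is 1 intensity per probe, taken as linear from the values themselves. The sources used here do not give the scanner, background correction or scaling, no detection flags were used, and the number of arrays limits precision. Of 28264 probes, 25893 had 1 gene symbol in the platform annotation, 0 several and 2371 none. No genome build is named, so positions are left out.

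Negative intensities were raised to 0, an offset of 1 was added and log2 was taken. Array medians lay within 0.5 log2, so values were used as deposited. Each gene was read from its brightest probe on average. Probes under the 25th percentile of mean log2 value (7.34) were left out, leaving 15053 of 19090 genes and 28 of 30 members (DLST and PDK4 were not tested). One group-means model over all 5 arrays was fitted with limma 3.58.1 in R 4.3.3 (lmFit and eBayes, 2 residual degrees of freedom, prior 3.96), with Benjamini-Hochberg adjustment over all genes, a threshold of 0.05 and two-sided tests. The single mutant array borrows its spread from the other groups. Exact permutation with 2 arrays a side has a smallest p of 0.333 and was not run. The procedure was tested on simulated data for ACOT12 against empty vector, with 200 changed genes in each of 20 simulations. It recovered 19.8% of changes of 1 log2, 92% of 2 log2 and 98.1% of 3 log2. These shares hold for data with 200 changed genes and a spread drawn from the fit's prior. They need not hold for the real arrays, where 0 genes were called in this comparison. False calls averaged 7.2 per simulation.

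The rule for statistics names, per comparison, the 6 members with the smallest p, the pyruvate dehydrogenase kinases and phosphatases, and 3 genes of each related list. The members and lists were chosen with earlier results of these data known. Alternatives were other scalings, offsets, filters, probe summaries and variance models, a replicate block, and the omission of each array. Fits on single probes with other settings were added after the data were seen.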

Additional observations from a re-analysis of the deposited data

How the results depend on the processing

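Read as genes, no member passed under any alternative run for ACOT12 or the mutant against empty vector. For ACOT12 against the mutant, 1 member (OGDHL) passed with the replicate block (1.04, adjusted p = 0.0444) and 0 to 1 when an array was left out. The replicate numbers pair only 2 arrays per group (deviations correlated at r = 0.16 across genes), so the block is no evidence of pairing. It moved the genes called to 1, 1635 and 2485 from 0, 5 and 1389 in the 3 comparisons. Left-out arrays gave member medians of −0.09 to −0.02, −0.18 to −0.13 and 0.08 to 0.15. Median centring moved the medians to −0.17, 0.11 and −0.31, and quantile normalization moved the mutant's to −0.11.

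Counts over all genes moved more. For ACOT12 against empty vector (0, with 452 at an unadjusted p under 0.05) they were 2 after quantile normalization or cyclic loess, 45 after centring, 192 with no filter, 8 with all probes averaged, 1 with the larger offset or a variance trend, and 0 to 5 without an array. For the mutant against empty vector (5) they were 8 after quantile normalization, 187 after cyclic loess, 1446 after centring, 150 with no filter, 11 with probes averaged, 8 with the larger offset, 499 with a variance trend, 141 with the stricter filter and 0 to 1986 without an array. For ACOT12 against the mutant (1386 higher, 3 lower) they were 5 after quantile normalization, 1 with no filter, 638 with the stricter filter, 1339 higher and 683 lower after centring, and 0 to 2343 without an array.

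Signs of small differences turned. For ACOT12 against empty vector, PDK3 read 0.03 and PDP1 0.05 without empty vector replicate 2, PDP1 0.01 without ACOT12 replicate 1, and PDHB 0.01 and PDK1 0.10 without ACOT12 replicate 2; over all left-out arrays PDHB ranged from −0.35 to 0.01, PDK1 from −0.46 to 0.10 and PDP1 from −0.15 to 0.05. For the mutant against empty vector, PDK2 read 0.08 after quantile normalization and 0.01 after cyclic loess, and centring gave PDK2 0.03, PDK3 0.17, PDP1 0.08 and SUCLG2 0.01. For ACOT12 against the mutant, PDK3 read −0.06 after quantile normalization and −0.02 after cyclic loess, and centring gave PDHX −0.16, PDK1 −0.01, PDK3 −0.34, PDP1 −0.26, SUCLA2 −0.03 and SDHD −0.01. The dimmer CS probe passed after centring, at 0.90 for the mutant against empty vector and −0.94 for ACOT12 against the mutant. The dimmer SDHC probe passed after centring for the mutant against empty vector (−0.92). Centring called 1446 and 2022 of all 15053 genes in these comparisons, and the share of all single probes called is not given here. Without empty vector replicate 2 the dimmer SDHC probe read −1.45 for the mutant against empty vector. Why these values changed was not tested.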
